A study of Mus musculus with 6 samples.

Results

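The Toll-like receptors Tlr1, Tlr2, Tlr3, Tlr4, Tlr5 and Tlr6, their adaptor Myd88 and the RIG-I-like receptors Ddx58 (RIG-I), Ifih1 (MDA5) and Dhx58 (LGP2) were read in immortalized murine embryonic fibroblasts (MEF) with or without the TIA proteins. These 10 genes were chosen by name. The array held 13 probes for them, on 32 spots, among 55681 probes in all. TIA1 and TIAR are related RNA-binding proteins that act on splicing and on the translation and stability of mRNA, and the study used the arrays to find the RNAs that depend on each of them. The arrays formed 3 groups of 2, hybridized with Cy3-labelled total RNA from independent samples: wild-type (WT) MEF of the W4 background, TIA1 KO MEF of the BALB/c background and TIAR KO MEF of the C57BL/6 background. Every line carried the changes that come with immortalization. Each genotype was represented by a line of a different background, so an effect of the genotype cannot be told apart from one of background or line. The 6 arrays shared 1 slide. Its second row held the TIA1 KO pair and its first row the rest, so slide row and the TIA1 KO genotype cannot be told apart either.

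Toll-like receptors are membrane proteins that recognize microbial products. Tlr2, paired with Tlr1 or Tlr6, recognizes bacterial lipoproteins, Tlr4 recognizes lipopolysaccharide, Tlr5 recognizes flagellin and Tlr3 recognizes duplex RNA inside endosomes. All of them except Tlr3 signal through Myd88 to NF-kappaB, and Tlr3 and Tlr4 also use the adaptor Ticam1 (TRIF). The RIG-I-like receptors are cytoplasmic RNA helicases. Ddx58 and Ifih1 sense viral RNA and signal through the mitochondrial protein Mavs to interferon genes, while Dhx58 lacks the signalling domains and modulates the other members. Fibroblasts are known to carry several of these receptors, and the RIG-I-like receptor genes are themselves induced by interferon.

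In TIAR KO MEF 2 members were called changed, 1 higher and 1 lower, beside 6.5% and 3.95% of all genes. In TIA1 KO MEF 1 was called, lower, beside 2.3%. Tlr2 was lower in TIA1 KO MEF and higher in TIAR KO MEF than in WT MEF, and Ifih1 was lower in TIAR KO MEF. Their proximal promoters, the 250 bases before the transcription start of the RefSeq gene on GRCm38.p6, are shown because these are the members that were called. Capitals mark a match to an NF-kappaB motif.
Tlr2 promoter, chr3:83841609-83841858, minus strand: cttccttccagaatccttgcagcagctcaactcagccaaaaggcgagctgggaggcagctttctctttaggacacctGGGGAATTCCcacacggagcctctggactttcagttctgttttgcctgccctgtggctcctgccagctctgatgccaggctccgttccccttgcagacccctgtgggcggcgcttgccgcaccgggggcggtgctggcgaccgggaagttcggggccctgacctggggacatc
Ifih1 promoter, chr2:62646256-62646505, minus strand: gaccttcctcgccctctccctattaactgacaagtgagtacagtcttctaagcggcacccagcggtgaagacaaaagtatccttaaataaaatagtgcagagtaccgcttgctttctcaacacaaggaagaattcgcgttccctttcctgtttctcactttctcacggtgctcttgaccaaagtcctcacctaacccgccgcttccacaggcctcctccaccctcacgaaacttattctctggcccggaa
The motif searched was GGGNNNTTCC on both strands. Its match in the Tlr2 promoter began 173 bases before the start. The same letters were found in 4.65% of 32851 promoters of the same length, among them 1 promoter each of Tlr3 and Tlr6. The core of the interferon-stimulated response element, searched as GAAANNGAAA on both strands, was found in 2.98% of promoters. It was in the Myd88 promoter, 40 bases before the start, and in a promoter of Tlr6, but these letters were not in the Tlr2 and Ifih1 windows. Neither motif matched in the promoters of Ddx58, Tlr1 and Tlr5. Promoters of Tlr4 and Dhx58 were not analysed here. Matches to different motifs did not overlap, and a match is a description of the letters and not of binding.

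The values below are log2 intensities, corrected for background and normalized across the 6 arrays. They serve to compare 1 probe between arrays and give no order of abundance between genes. A gene was called changed where limma's Benjamini-Hochberg adjusted p over all probes was under 0.05 and the fold change was above 2. Where a gene had several probes, its brightest probe was read. Scanner flags tell whether a probe was well above the local background, and 6 of the 10 genes were so on all 6 arrays. Fewer probes of the whole array were so on the TIA1 KO arrays (16021 and 19996) than on the others (23569 to 26295). The share of cells that make a transcript and the amount of it per cell cannot be told apart in bulk RNA.

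The targeted genes were read first. The brightest Tia1 probe gave 10.72 and 8.54 for WT, 7.87 and 8.44 for TIA1 KO and 9.56 and 9.58 for TIAR KO MEF. Its log2 change in TIA1 KO MEF, −1.47 ± 0.79 (SE), was not called (limma adjusted p = 0.288), and the WT arrays themselves lay 2.18 apart. The other Tia1 probes were not called either: 1 changed by −1.62 ± 0.42 (limma adjusted p = 0.116), with WT arrays at 9.56 and 9.90, and 1, well above background on no WT array and 1 TIA1 KO array, was at least 1.82-fold higher (limma adjusted p = 0.149). Tial1, the gene of TIAR, was called lower in TIAR KO MEF on its second probe, which read 11.71 and 11.09 in WT and 10.00 and 9.65 in TIAR KO cells (log2 change −1.58 ± 0.26, limma adjusted p = 0.0254). Its brightest probe changed by −2.63 ± 0.87 (limma adjusted p = 0.200) with 1 WT value left out as an outlier spot. Which exons the alleles lack was not given in the sources used here, so it is not known whether these probes lie in deleted sequence. The paper reported the loss of each targeted mRNA and protein in its knockout line by RT-PCR and western blot.

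The labelled cell type was checked against fibroblast markers. Vim, the mesenchymal intermediate filament vimentin, read between 17.24 and 17.89 on all arrays. The WT line was low for several others: Pdgfra, the receptor that marks many fibroblasts, read 6.37 and 6.40 on the WT arrays, where it was not well above background, 10.05 and 10.23 in TIA1 KO and 11.68 and 11.51 in TIAR KO cells. Of 8 fibroblast markers, 6 were called higher in TIA1 KO cells and 7 in TIAR KO cells, and the summed linear level of the list was 280733 and 267380 for WT, 834565 and 774337 for TIA1 KO and 912312 and 905575 for TIAR KO MEF, with the Vim probe the brightest in WT MEF and that of Col1a2 in both knockouts, which is no order of abundance. Of 10 macrophage and other leukocyte markers, 5 were well above background on each WT array, 2 and 4 on the TIA1 KO arrays and 4 on each TIAR KO array. Cd68, a lysosomal protein of macrophages, and Itgam, an integrin of myeloid cells, were so on all 6 arrays, while Ptprc (the pan-leukocyte phosphatase CD45), Emr1, Lyz2 and Fcgr1 were among those well above background on none. Itgam, the brightest probe of the list, was called higher in TIA1 KO MEF (log2 change 1.82 ± 0.24, limma adjusted p = 0.0415), and Aif1, a calcium-binding protein of macrophages, was called lower in the TIAR KO pair, at least 2.56-fold (limma adjusted p = 0.00533). The summed level of the list was 7846 and 6054 for WT, 15879 and 13580 for TIA1 KO and 8773 and 8688 for TIAR KO MEF. The median log2 change of its 10 genes was −0.25 in TIA1 KO and −0.07 in TIAR KO cells, so the higher sum in TIA1 KO MEF was carried by the Itgam probe. Among 4 endothelial markers none was called against WT MEF. Their brightest probe was that of Kdr, and Cdh5 was well above background on no array. Their summed level ran from 2847 to 3782 over the 6 arrays. Of 4 epithelial markers, 1 was called higher in TIA1 KO MEF (Krt8) and 3 in TIAR KO MEF (Krt8, Krt18 and Cdh1), and their summed level was 681 and 701 for WT, 1041 and 1342 for TIA1 KO and 2221 and 2182 for TIAR KO MEF. The part of these differences in the receptor results was not tested.

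The comparison of TIA1 KO MEF with WT MEF asked which receptor mRNAs differ where TIA1 is lacking. None of the 10 members was called higher and 1, Tlr2, was called lower. Over 19965 genes with a RefSeq mRNA accession, 3.8% were called higher and 2.3% lower in the same comparison. At an unadjusted limma p under 0.05 there were 7 members, beside 32.7% of all genes. The median log2 change of the members was −0.59, against −0.07 over all genes, and 8 of the 10 estimates were negative. These 8 include Tlr3 and Tlr5, near background in TIA1 KO MEF, whose estimates changed sign with the scanner's processed signal.

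For TIAR KO MEF against WT MEF, 1 member (Tlr2) was called higher and 1 (Ifih1) lower. The shares over all genes were 6.5% higher and 3.95% lower. The median log2 change of the members was −0.08, beside −0.01 over all genes, with 5 estimates above 0 and 5 below. In the direct comparison of TIAR KO with TIA1 KO MEF, 1 member (Tlr2) was called higher in TIAR KO MEF and none lower, beside 3.15% and 2.76% of all genes, and 5 members had an unadjusted limma p under 0.05, beside 28.9% of all genes. The comparisons with WT MEF share the WT arrays, so a shared direction of the knockouts is not independent.

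**Figure D1:**
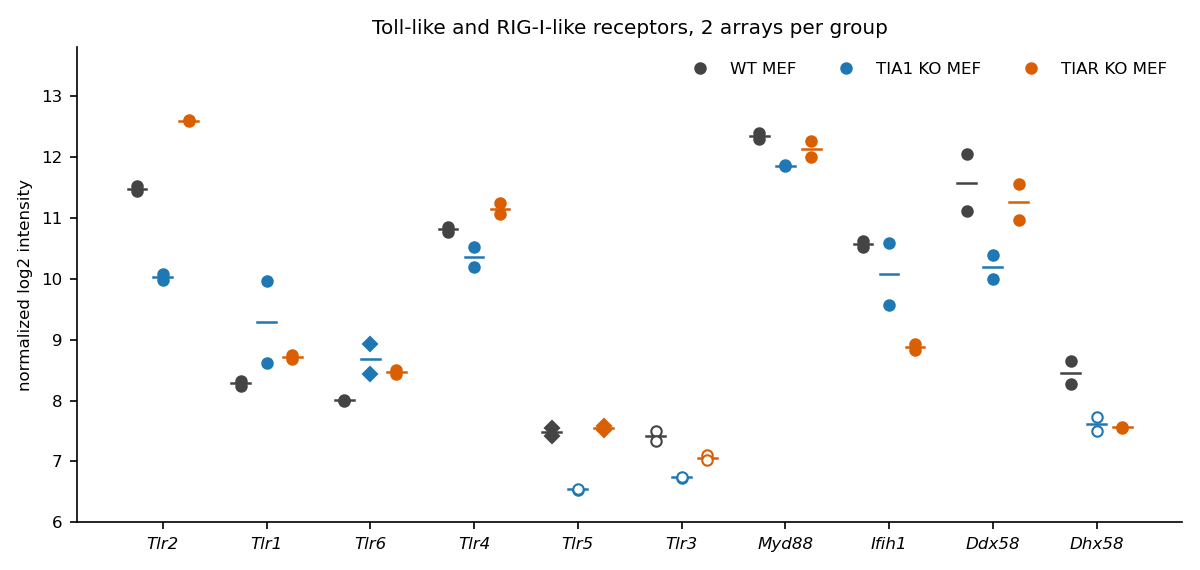
Normalized log2 intensity of the brightest probe of each gene on each array, with a bar at the mean of the 2 arrays of a group; an open circle marks a group whose arrays were both not well above background and a diamond a group with 1 such array. Tlr2 was lowest in TIA1 KO MEF and highest in TIAR KO MEF, with WT arrays at 11.44 and 11.51 between them, and Tlr3 lay near background throughout.

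Among the lipoprotein receptors, Tlr2 gave the only member call in opposite directions. Its probe (mm9, chr3:83640344-83640403, minus strand) was spotted 10 times on each array and was well above background on all of them. It read 11.44 and 11.51 in WT, 10.07 and 9.98 in TIA1 KO and 12.60 and 12.58 in TIAR KO cells. Arrays of 1 group lay within 0.10 of each other and no groups overlapped. Tlr2 fell by 1.45 in TIA1 KO MEF (SE 0.15, 2.74-fold, limma adjusted p = 0.0276). It rose by 1.11 ± 0.14 in TIAR KO MEF (2.16-fold, limma adjusted p = 0.0109). The direct difference between the knockouts was 2.57 ± 0.15, a 5.92-fold higher level in TIAR KO MEF (limma adjusted p = 0.00964). The direction held in every alternative processing, but the calls did not. With the scanner's processed signal no call was made (limma adjusted p = 0.0835 in TIA1 KO, 0.132 in TIAR KO and 0.0586 between the knockouts). With arrays scaled to a common median, the TIAR KO change was 0.70 (limma adjusted p = 0.0440), under the 2-fold threshold. The TIA1 KO call was also missed with the authors' log2 values (limma adjusted p = 0.0511) and with the replicate number as a block (limma adjusted p = 0.0798), which took the call between the knockouts as well (limma adjusted p = 0.0695). Without WT 1 or WT 2 the TIA1 KO change was −1.49 or −1.42 with limma adjusted p = 0.312 or 0.310, in fits where no probe of the array was called. The TIAR KO change was 1.08 to 1.12 without WT 1, TIAR KO 1 or TIAR KO 2, and was not called in these fits. The direct difference stayed at 2.56 and 2.57 without TIAR KO 1 or TIAR KO 2 but lost its call. The pathway genes called between the knockouts lost their calls there too, so this loss was not particular to Tlr2.

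The repeat spots show how far 1 array's value of Tlr2 can be trusted. On WT 1 they ran from 10.71 to 12.08 and on WT 2 from 10.60 to 12.07. They ran from 8.91 to 10.46 and from 9.43 to 10.24 on the TIA1 KO arrays. On the TIAR KO arrays they ran from 12.14 to 13.15 and from 12.01 to 12.97. The spots of the TIA1 KO arrays thus all lay below those of the WT arrays, while WT and TIAR KO spots overlapped between 12.01 and 12.08. Spots on 1 array share 1 RNA sample and are not replicates of a group.

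**Figure D2:**
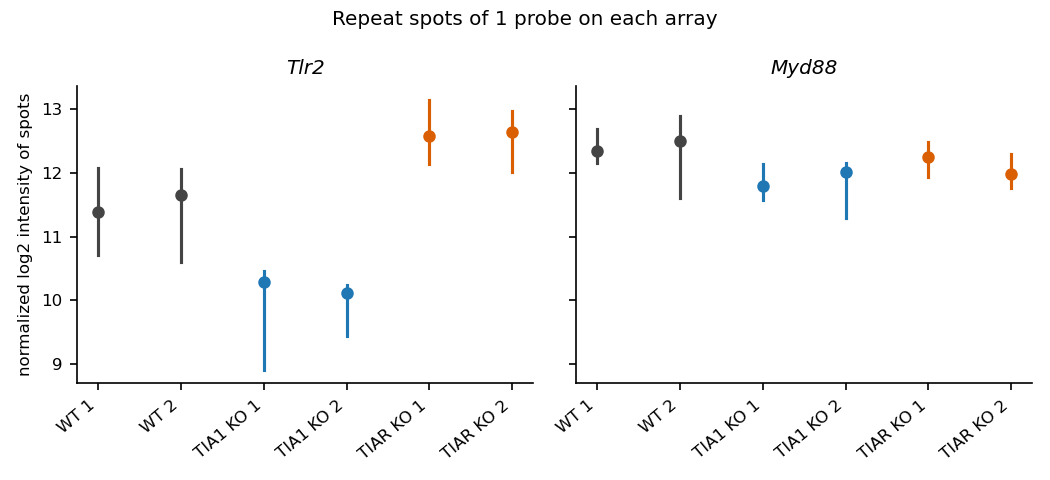
Median (point) and range (line) of the normalized log2 intensities of the repeat spots of the Tlr2 probe and of the Myd88 probe on each array, with 9 or 10 spots used. For Tlr2 the TIA1 KO spots ended at 10.46, below the lowest WT spot at 10.60; for Myd88 the ranges of the groups overlapped.

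Tlr1 and Tlr6, the partners of Tlr2, lie close together on chromosome 5 (mm9 probes at chr5:65316115-65316174 and chr5:65344365-65344424, minus strand). Tlr1 read 8.24 and 8.32 in WT, 9.96 and 8.62 in TIA1 KO and 8.68 and 8.74 in TIAR KO cells. Both knockouts lay above WT MEF, but the TIA1 KO arrays differed by 1.34 from each other. The log2 change was 1.00 ± 0.48 in TIA1 KO MEF (limma adjusted p = 0.253) and 0.43 ± 0.14 in TIAR KO MEF (limma adjusted p = 0.172), and neither was called. Without TIA1 KO 2 the first became 1.67 (limma adjusted p = 0.0123), which would be a call that rests on 1 array, and without TIA1 KO 1 it was 0.33 (limma adjusted p = 0.319). Tlr6 read 8.00 and 8.01 in WT, 8.43 and 8.92 in TIA1 KO and 8.50 and 8.43 in TIAR KO cells. Its changes of 0.67 ± 0.22 and 0.46 ± 0.14 were not called (limma adjusted p = 0.157 and 0.137), although no knockout array overlapped the WT arrays. In TIA1 KO MEF only 1 of the 2 arrays had Tlr6 well above background.

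Tlr4, the lipopolysaccharide receptor, read 10.76 and 10.85 in WT, 10.18 and 10.51 in TIA1 KO and 11.06 and 11.24 in TIAR KO cells. The order of the groups was that of Tlr2, without overlap, at a smaller distance. The changes of −0.46 ± 0.19 and 0.34 ± 0.15 against WT MEF were not called (limma adjusted p = 0.204 and 0.306), nor was the direct difference of 0.80 ± 0.20 (limma adjusted p = 0.129). With arrays scaled to a common median the TIA1 KO change was called (−1.78, or −0.94 relative to the median of all genes), as was the direct difference (1.76, or 1.04). The 2 spots of this probe read 9.05 and 11.32 on TIA1 KO 1, and a second Tlr4 probe, assigned to another transcript, was near background on all arrays. Of its co-receptors, Cd14, which hands lipopolysaccharide to Tlr4, was called lower in TIAR KO MEF, while Ly96 (MD-2), which binds lipopolysaccharide within the receptor, was not called in either knockout (−0.43 ± 0.16 and −0.14 ± 0.17).

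Tlr5 and Tlr3 were at the edge of what the array measured. Tlr5 read 7.42 and 7.55 in WT, 6.54 and 6.55 in TIA1 KO and 7.51 and 7.58 in TIAR KO cells. It was well above background on 1 WT array, 1 TIAR KO array and no TIA1 KO array, so no fold or direction is given for TIA1 KO MEF. The fit did not call it there (limma adjusted p = 0.0629). With arrays scaled to a common median it was called in TIA1 KO MEF (−1.185, or −0.35 relative to the median of all genes, limma adjusted p = 0.0492). Tlr3 read 7.50 and 7.34, 6.72 and 6.75, and 7.10 and 7.02 in WT, TIA1 KO and TIAR KO MEF and was not well above background on any array, so no fold is given. The estimates of both genes in TIA1 KO MEF changed sign with the scanner's processed signal, so neither is read as a direction.

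Myd88, the adaptor, was measured on 10 spots per array and read 12.39 and 12.30 in WT, 11.84 and 11.86 in TIA1 KO and 12.26 and 12.00 in TIAR KO cells. The knockout arrays lay below the WT arrays, by −0.49 ± 0.15 (95% interval −0.90 to −0.09) in TIA1 KO MEF and −0.22 ± 0.16 (−0.62 to 0.19) in TIAR KO MEF. Neither was called (limma adjusted p = 0.140 and 0.557), and both intervals leave out a change as large as 2-fold under this normalization. With arrays scaled to a common median, which moved the median of all genes in TIA1 KO MEF to −0.84, Myd88 was called lower there (−2.05, limma adjusted p = 0.000317), or by −1.21 relative to that median.

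**Figure D3:**
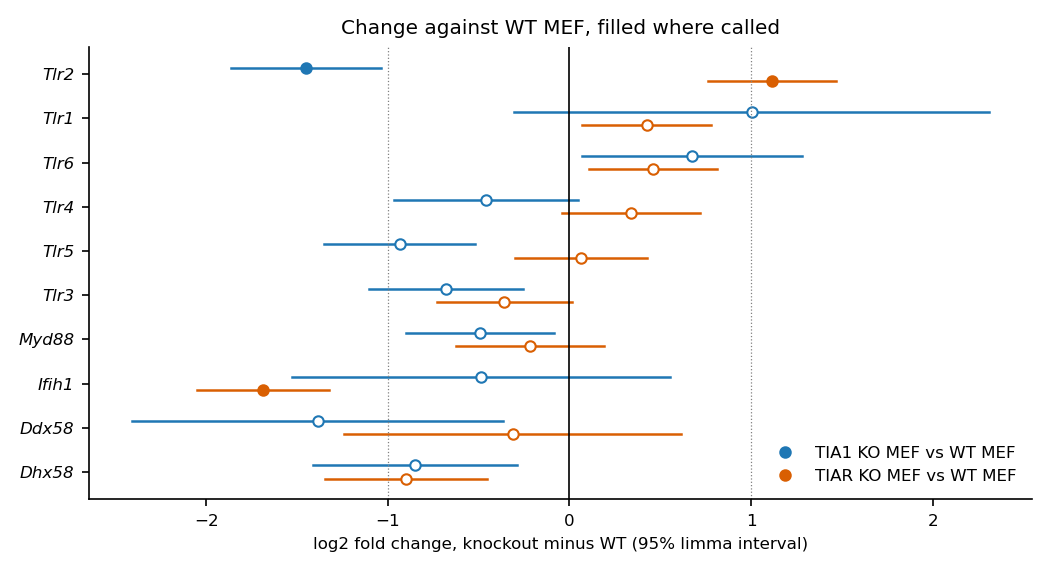
Log2 fold change of each gene against WT MEF with limma's 95% interval, for both knockouts; filled points were called and dotted lines mark the 2-fold threshold. Tlr2 was called at −1.45 in TIA1 KO cells and 1.11 in TIAR KO cells, Ifih1 was called at −1.69 in TIAR KO MEF, and no other point was called.

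Of the RNA helicases, Ifih1, the sensor of long viral RNA, was lower in TIAR KO MEF. Its brightest probe (mm9, chr2:62435507-62435566, minus strand) read 10.51 and 10.62 in WT, 10.59 and 9.56 in TIA1 KO and 8.83 and 8.93 in TIAR KO cells. The TIAR KO arrays lay below all others, whereas the TIA1 KO arrays straddled the WT level and differed by 1.03. The log2 change was −1.69 ± 0.14 in TIAR KO MEF (3.22-fold lower, limma adjusted p = 0.00309) and −0.49 ± 0.38 in TIA1 KO MEF (limma adjusted p = 0.432). The direct difference between the knockouts, −1.20 ± 0.38, was not called (limma adjusted p = 0.184), so the knockouts were not shown to differ. Scaling to a common median also called Ifih1 lower in TIA1 KO MEF (−1.71, or −0.87 relative to the median of all genes, limma adjusted p = 0.00292). The direct difference was then −0.34, or −1.06 relative to the median of all genes in that comparison. Without TIA1 KO 2 the direct difference became −1.72 (limma adjusted p = 0.00799), and the call in TIAR KO MEF was missed when the 3 groups were fitted together (limma adjusted p = 0.0537). The second Ifih1 probe (chr2:62434960-62435019) disagreed: it read 7.82 and 7.79 in WT, 6.73 and 7.07 in TIA1 KO and 9.55 and 6.69 in TIAR KO cells, where only 1 array was well above background, and gave a TIAR KO change of 0.31 ± 0.89 (limma adjusted p = 0.906).

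Dhx58, the modulator, read 8.28 and 8.64 in WT, 7.50 and 7.72 in TIA1 KO and 7.55 and 7.56 in TIAR KO cells. Both knockouts lay below WT MEF without overlap. In TIAR KO MEF the change of −0.90 ± 0.18 (1.87-fold) passed the adjusted p (limma adjusted p = 0.0442) but not the 2-fold threshold. In TIA1 KO MEF, where neither array was well above background, it was lower by at least 1.5-fold and not called (limma adjusted p = 0.109).

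Ddx58, the sensor of short viral RNA with a triphosphate end, varied most between WT arrays. Its brightest probe (mm9, chr4:40151893-40151952, minus strand) read 12.04 and 11.10 in WT, 10.38 and 9.99 in TIA1 KO and 10.96 and 11.55 in TIAR KO cells. The TIA1 KO arrays were the lowest, and the TIAR KO arrays overlapped the WT arrays. The changes of −1.39 ± 0.38 and −0.31 ± 0.37 were not called (limma adjusted p = 0.124 and 0.728). A second probe (chr4:40151133-40151192) was not well above background on either TIA1 KO array and was lower there by at least 1.49-fold, and in TIAR KO MEF it changed by −0.45 ± 0.17. Neither was called (limma adjusted p = 0.104 and 0.236). Scaling to a common median led to a call for the first probe, lower in TIA1 KO MEF than in WT MEF (−2.83, or −2.0 relative to the median of all genes) and than in TIAR KO MEF (TIAR KO minus TIA1 KO 2.13, or 1.41).

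The genes around the receptors were described from 9 lists of 98 genes. In TIA1 KO MEF 3 of them were called higher and 16 lower, beside 3.8% and 2.3% of all genes. In TIAR KO MEF 9 were called higher and 21 lower, beside 6.5% and 3.95%. Without WT 1 or WT 2 no probe of the array was called in TIA1 KO MEF, these 98 genes included. In TIAR KO MEF 24 to 27 were called without any 1 array. The TIAR KO calls of Tlr9, Cd14, Unc93b1, Rnf125, Socs1, Sigirr, Irf1, Ccl2 and Ifi44 were lost without at least 1 array, with limma adjusted p between 0.0501 and 0.124. The lists were drawn up from textbook knowledge of these pathways, but with earlier results of these data known. Their counts and medians beside those of all genes are therefore a description and no test of an excess. The lists held 6 to 18 genes, so their counts of calls are not compared with each other. The adaptors and kinases held no call in either comparison, but with arrays scaled to a common median 14 of them were called lower in TIA1 KO and 3 in TIAR KO cells. Under that scaling the median change over all genes was −0.84 for TIA1 KO cells, beside −1.60 for this list. For TIAR KO cells these medians were −0.07 and −0.48. The part of this shift of all genes in the calls was not tested.

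**Figure D4:**
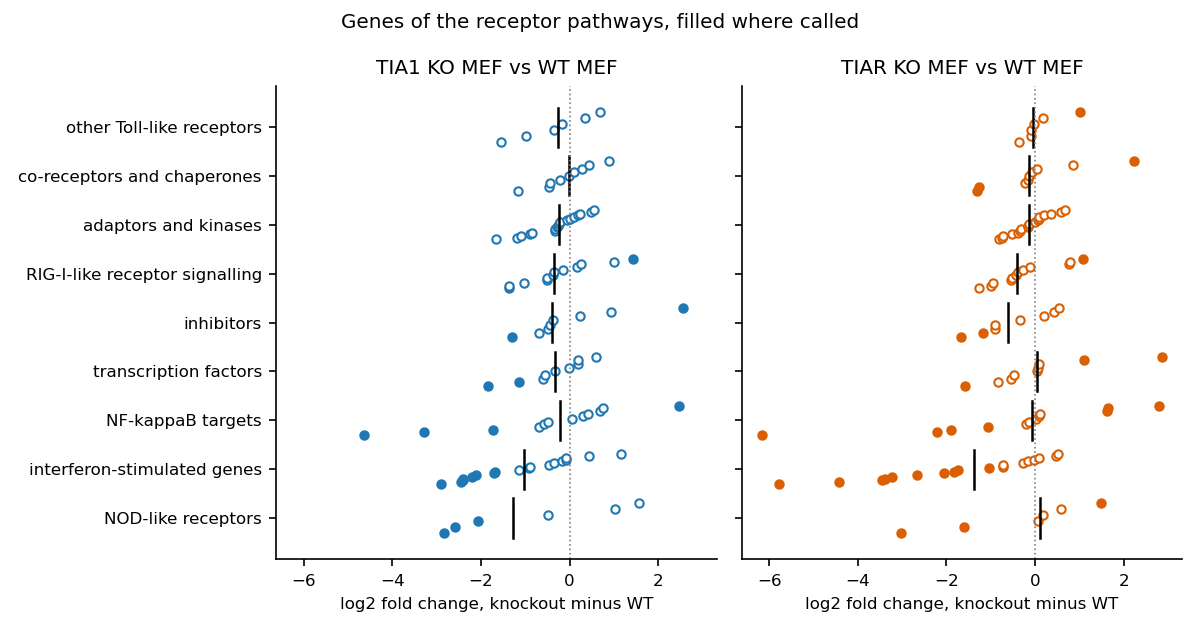
Log2 fold change of each gene of the 9 lists against WT MEF, with both knockouts on the same axis; each point is a gene, filled where called, and a bar marks the median of the list. The interferon-stimulated genes had medians of −1.03 and −1.39, and the adaptors and kinases held no filled point.

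Of 6 other Toll-like receptors, 1 was called in a knockout: Tlr9, the receptor of unmethylated CpG DNA, read 10.65 and 10.65 in WT, 11.31 and 11.35 in TIA1 KO and 11.52 and 11.80 in TIAR KO cells. Its change in TIAR KO MEF of 1.01 ± 0.16 (limma adjusted p = 0.0238) lay at the 2-fold threshold and lost its call in 8 of the alternatives. The list median was −0.25 in TIA1 KO cells and −0.06 in TIAR KO cells.

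Of 9 co-receptors and chaperones none was called in TIA1 KO MEF, while 1 was higher and 2 lower in TIAR KO MEF (medians −0.01 and −0.14). Cd14 read 12.10 and 12.45 in WT, 12.55 and 12.55 in TIA1 KO and 10.91 and 11.00 in TIAR KO cells, a change of −1.32 ± 0.18 (limma adjusted p = 0.0136). Lbp, the secreted protein that carries lipopolysaccharide to Cd14, went the other way, from 7.83 and 7.75 in WT MEF to 9.99 and 10.05 in TIAR KO MEF (2.23 ± 0.14, limma adjusted p = 0.00120), and was not well above background in TIA1 KO MEF. Unc93b1, the chaperone that brings nucleic acid receptors such as Tlr3 and Tlr9 to endosomes, fell by 1.26 in TIAR KO MEF (SE 0.16, limma adjusted p = 0.0108).

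None of 18 adaptors and kinases was called against WT MEF by limma, and at an unadjusted p under 0.05 there were 5 in TIA1 KO cells and 4 in TIAR KO cells, beside 32.7% and 30.6% of all genes. The list medians were −0.25 and −0.15. Irak1, a kinase recruited by Myd88, changed by −0.84 ± 0.16 in TIA1 KO MEF and Ticam1 by −0.90 ± 0.17 there. Both missed the adjusted p (limma adjusted p = 0.0779 for each). These genes were picked after their values were seen.

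Downstream of the helicases, 1 of 12 genes of RIG-I-like receptor signalling was higher and 1 lower in TIA1 KO MEF, and 1 was higher in TIAR KO MEF (medians −0.36 and −0.40). Mavs itself was not called, at −0.50 ± 0.19 and −0.54 ± 0.19. Trim25, a ubiquitin ligase that activates Ddx58, read 15.07 and 15.29 in WT and 13.73 and 13.88 in TIA1 KO cells (−1.38 ± 0.17, limma adjusted p = 0.0393). The Trim25 call was missed with the authors' log2 values. Ikbke, the kinase IKK-epsilon that activates interferon regulatory factors, rose by 1.44 ± 0.17 in TIA1 KO MEF (limma adjusted p = 0.0348). Rnf125, a ubiquitin ligase that marks Ddx58 for degradation, was at least 1.80-fold higher in TIAR KO MEF (limma adjusted p = 0.0260), with both WT arrays not well above background.

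Among 8 inhibitors 1 was higher and 1 lower in TIA1 KO MEF, and 2 were lower in TIAR KO MEF (medians −0.40 and −0.61). Sigirr, a receptor that dampens Toll-like and interleukin signalling, read 8.99 and 9.07 in WT, 11.64 and 11.53 in TIA1 KO and 7.79 and 7.90 in TIAR KO cells. No groups overlapped, and its order was the reverse of that of Tlr2. It rose by 2.55 ± 0.15 in TIA1 KO MEF (limma adjusted p = 0.00879) and fell by 1.19 in TIAR KO MEF (SE 0.14, limma adjusted p = 0.00988). Socs1, the suppressor of cytokine signalling that blocks Jak kinases, was lower in both, by −1.29 ± 0.16 and −1.66 ± 0.23 (limma adjusted p = 0.0372 and 0.0154). Its TIA1 KO call was missed with the authors' log2 values.

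Of 9 transcription factors 2 were lower in TIA1 KO MEF, and 2 were higher and 1 lower in TIAR KO MEF (medians −0.32 and 0.04). Irf7, which drives type I interferon genes, read 8.88 and 8.93 in WT, 6.82 and 7.31 in TIA1 KO and 7.39 and 7.25 in TIAR KO cells. It was not well above background in either knockout and fell at least 2.36-fold in TIA1 KO and at least 3.0-fold in TIAR KO cells (limma adjusted p = 0.0370 and 0.00381). Irf5, which acts downstream of Myd88, rose by 2.87 ± 0.16 in TIAR KO MEF, from 9.97 and 10.17 to 12.83 and 13.03 (limma adjusted p = 0.000890). Irf1 rose by 1.10 ± 0.14 there (limma adjusted p = 0.0115), and Relb, a subunit of NF-kappaB, fell by 1.13 in TIA1 KO MEF (SE 0.16, limma adjusted p = 0.0487).

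Of 12 NF-kappaB targets 1 was higher and 3 lower in TIA1 KO MEF, and 3 were higher and 4 lower in TIAR KO MEF (medians −0.21 and −0.06). Ccl5, a chemokine for T cells, read 14.76 and 13.55 in WT, 9.53 and 9.50 in TIA1 KO and 8.10 and 7.87 in TIAR KO cells, changes of −4.64 ± 0.44 and −6.17 ± 0.40 (limma adjusted p = 0.0228 and 0.00131). Cxcl1, a neutrophil chemokine, was also lower in both (−1.72 ± 0.16 and −2.21 ± 0.15, limma adjusted p = 0.0209 and 0.00138). Ccl2, the monocyte chemokine, read 17.66 and 17.72 in WT and 14.38 and 14.43 in TIA1 KO cells (−3.29 ± 0.15, limma adjusted p = 0.00557). In TIAR KO MEF it changed by −1.07 ± 0.14 (limma adjusted p = 0.0134), a call lost without any 1 of the 4 arrays (limma adjusted p between 0.0547 and 0.0699). Ptgs2, the inducible cyclooxygenase, read 10.83 and 11.27 in WT, 13.30 and 13.74 in TIA1 KO and 9.13 and 9.18 in TIAR KO cells, so that it rose in the first knockout (2.47 ± 0.26, limma adjusted p = 0.0279) and fell in the second (−1.90 ± 0.19, limma adjusted p = 0.00538). Higher in TIAR KO MEF were Ccl7 (2.79 ± 0.14), Il6 (1.64 ± 0.15, with 1 WT array well above background) and Vcam1 (1.62 ± 0.15), a chemokine, a cytokine and an adhesion molecule, with limma adjusted p = 0.000636, 0.00381 and 0.00368.

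Of 18 interferon-stimulated genes none was called higher in either knockout, 6 were lower in TIA1 KO cells and 10 in TIAR KO cells. Their medians of −1.03 and −1.39 stood beside −0.07 and −0.01 over all genes. Oas1a, an enzyme that detects duplex RNA and activates RNase L, read 12.26 and 13.10 in WT, 9.89 and 9.68 in TIA1 KO and 6.82 and 6.99 in TIAR KO cells. It fell by 2.89 in TIA1 KO MEF (SE 0.33, limma adjusted p = 0.0332) and fell at least 50.9-fold in TIAR KO MEF, where it was not well above background (limma adjusted p = 0.000684). Isg15, a ubiquitin-like protein, read 14.09 and 13.99 in WT, 11.97 and 11.70 in TIA1 KO and 9.37 and 9.88 in TIAR KO cells (−2.21 ± 0.18 and −4.42 ± 0.21, limma adjusted p = 0.0164 and 0.000546). Usp18, which removes Isg15 from proteins, fell at least 3.59-fold in TIA1 KO MEF, and Oasl2 at least 10.3-fold in TIAR KO MEF (limma adjusted p = 0.0148 and 0.000457). Cxcl10, a chemokine induced by interferon, fell by 2.41 in TIA1 KO MEF (SE 0.19, limma adjusted p = 0.0160). Ifnb1, the gene of interferon beta, was not well above background on any array. Without WT 1 or WT 2 the medians in TIA1 KO MEF were −1.02 and −1.12. These genes then lost their calls there, as did every probe of the array. In TIAR KO MEF the median ran from −1.41 to −1.37 when any 1 of its arrays or of the WT arrays was left out.

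Of 6 NOD-like receptors and related genes, cytoplasmic sensors, 3 were lower in TIA1 KO MEF, and 1 was higher and 2 lower in TIAR KO MEF (medians −1.28 and 0.12). Nod1, the sensor of a bacterial wall peptide, read 11.58 and 11.53 in WT, 8.77 and 9.15 in TIA1 KO and 11.70 and 12.60 in TIAR KO cells (−2.59 ± 0.20 in TIA1 KO MEF, limma adjusted p = 0.0148). Only 1 TIA1 KO array had Nod1 well above background. Nlrc5, the activator of class I antigen presentation genes, fell at least 5.02-fold in TIA1 KO and at least 7.77-fold in TIAR KO cells (limma adjusted p = 0.0206 and 0.000661). Nod2 was at least 2.46-fold and at least 2.80-fold lower (limma adjusted p = 0.0288 and 0.0103). Aim2, a sensor of cytoplasmic DNA, rose by 1.48 ± 0.16 in TIAR KO MEF (limma adjusted p = 0.00597), with 1 WT array well above background.

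Likeness to the called members was measured as the root mean square difference between centred log2 values over the 6 arrays, among 8553 genes well above background on all of them. The genes most like Tlr2 were Gstm1, a glutathione transferase (0.145), and Tsc22d1, a transcription factor (0.222). Gstm1 read 13.37 and 13.39 in WT, 12.26 and 12.16 in TIA1 KO and 14.41 and 14.60 in TIAR KO cells. The genes most like Ifih1 were Entpd5 (0.178) and Cdkl2 (0.196), and these differences rest on 6 arrays in 3 groups.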

How the data were processed

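Total RNA from 6 MEF cultures (2 each of WT, TIA1 KO and TIAR KO) was labelled with Cy3 and put on 1-colour Agilent mouse arrays of the SurePrint G3 design. The authors deposited the intensity of each spot as extracted by Feature Extraction 10.7.3.1 and a table of normalized log2 values per spot. The intensities (mean signal and median background) were corrected by normexp (offset 50), log2 transformed, loess adjusted and then quantile normalized, following the study's methods. The further scaling of each array to its mean signal was not applied. Control spots and outlier spots were left out and spots of a probe averaged. The values correlated with the deposited log2 table at 0.997 to 0.999 on the same array. Each comparison was fitted on its own 4 arrays with limma 3.58.1 in R 4.3.3 over all 55681 probes, with Benjamini-Hochberg adjustment, and the fit was tested on simulated data. Probes well above background numbered 16021 and 19996 on the TIA1 KO arrays and 23569 to 26295 on the others. The median intensity was 458 and 218 on the TIA1 KO arrays and 119 to 152 on the others. The part of this in the TIA1 KO results was not tested. Precision is limited by having 2 arrays a group. Gene names came from the files, and Mb21d1 was matched through its RefSeq accession. Named were all members, the targeted genes and up to 3 of the largest called rises and falls of each list against WT MEF. The 2 genes most like each called member and some cell-type markers were named too. So were the pathway genes called between the knockouts, such as Tnfaip3, and TIAR KO calls lost without an array, such as Ifi44. Irak1, Ticam1, Mavs, Ly96 and Ifnb1 were added after their values were seen. The members and lists were chosen with earlier results of these data known. The level of 1 marker of the leukocyte list, which is counted in the list's sum, is not reported here.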

Additional observations from a re-analysis of the deposited data

Results flagged for a closer look

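Tlr2 was lower in TIA1 KO MEF and higher in TIAR KO MEF, and the direct test of the knockouts called the difference (log2 2.57, limma adjusted p = 0.00964). The same direct test called 15 of the 98 pathway genes, 7 higher in TIAR KO MEF and 8 higher in TIA1 KO MEF, beside 3.15% and 2.76% of all genes. Sigirr and Ptgs2 were also called in opposite directions against WT MEF, with differences of −3.74 and −4.36 (TIAR KO minus TIA1 KO, log2). Higher in TIAR KO MEF were Nod1 (3.19, with 1 TIA1 KO array well above background), Ccl2 (2.21), Ccl7 (2.10), Vcam1 (2.10) and Irf1 (1.12). Lbp and Il6, not well above background in TIA1 KO MEF, were at least 6.04-fold and at least 3.07-fold higher in TIAR KO MEF. Lower there were Isg15 (−2.21), Tnfaip3 (−1.82), Ikbke (−1.81), Cd14 (−1.59) and Ccl5 (−1.53), and Oas1a, not well above background in TIAR KO MEF, was at least 6.84-fold lower. Tnfaip3 encodes A20, an inhibitor of NF-kappaB that Toll-like receptor signals induce. None of these differences was called without TIAR KO 1 or TIAR KO 2 (26 and 27 of the 98 genes then had an unadjusted limma p under 0.05), and slide row and background differ between the knockouts as well.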

How the results depend on the processing

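Directions of the called members and called pathway genes held under all alternatives tried, while counts of calls depended on the scaling and on single arrays. In TIA1 KO against WT MEF, 1 member, 19 pathway genes and 1969 probes were called. The scanner's processed signal scaled to the 75th percentile gave 0, 0 and 0 (2, 38 and 27598 at an unadjusted limma p under 0.05), a common median 6, 60 and 15801, and 1309 probes and 0 members with the authors' log2 values. A fit of all 3 groups called 3986 probes. Leaving out single arrays gave 0 to 2 members, 0 to 33 pathway genes and 0 to 10735 probes, with 0 without WT 1 or WT 2 and the largest counts without TIA1 KO 2; 7202 and 7415 probes had an unadjusted p under 0.05 without WT 1 or WT 2. In TIAR KO against WT MEF, 2 members were called, and 1 with the processed signal, 1 with all 3 groups fitted together and 1 to 2 when single arrays were left out; with a common median there were 2, but Tlr2 (0.70) lost its call and Dhx58 (−1.01) gained one. In TIAR KO against TIA1 KO MEF, 1 member, 15 pathway genes and 1866 probes were called, against 0, 5 and 1132 with the processed signal, 4, 29 and 8307 with a common median, 2925 probes with only probes well above background and 3183 with all 3 groups. Single arrays left out gave 0 to 4 members, 0 to 29 pathway genes and 0 to 10086 probes. With the replicate number as a block (replicate block), TIA1 KO against WT MEF called 0 members, 9 pathway genes and 671 probes, and TIAR KO against TIA1 KO MEF called 0, 0 and 0, while TIAR KO against WT MEF called 3308 probes against 3206. Among the TIA1 KO calls that the block ended were those of Ikbke, Trim25, Socs1, Irf7 and Relb. With 2 arrays a group the numbers were not shown to pair the arrays (correlations of deviations 0.08, 0.03 and −0.07 over all probes, and 0.28, 0.02 and −0.08 over probes well above background on all arrays). The median change of all genes in TIA1 KO MEF was −0.07, but 0.72 with the processed signal and −0.84 with a common median. Relative to these medians the Tlr2 change was −1.38, −2.37 and −2.07. List medians in TIA1 KO MEF moved as well. With the processed signal that of the other Toll-like receptors became 1.84 and that of the NF-kappaB targets 1.31. With a common median that of the adaptors and kinases became −1.60. The median of the interferon-stimulated genes was −1.40 with the processed signal and −1.62 with a common median. Directions that reversed belonged to members not called. With the processed signal Tlr3 and Tlr5, near background in TIA1 KO MEF and read for no fold or direction, became 1.66 and 1.03 in TIA1 KO MEF and −2.95 and −0.27 between the knockouts. With a common median Tlr4 became −0.0156 in TIAR KO MEF and Tlr1 0.0397 between the knockouts. Relative to the median of all genes in the same setting, Tlr4 in TIAR KO MEF (0.056) and Tlr1 and Tlr5 between the knockouts (−0.68 and 0.31) kept their direction. Tlr3 and Tlr5 in TIA1 KO MEF and Tlr3 between the knockouts stayed reversed with the processed signal (0.94, 0.31 and −2.38), and Tlr6 (0.41, processed signal) and Tlr3 (−0.03, common median) turned between the knockouts. When single arrays were left out, Ifih1 ran from −1.003 to 0.0272 in TIA1 KO MEF, Tlr5 from −0.0002 to 0.128 and Ddx58 from −0.78 to 0.154 in TIAR KO MEF, and Tlr1 from −1.25 to 0.0909, Tlr6 from −0.46 to 0.0345 and Dhx58 from −0.16 to 0.0606 between the knockouts. Ly96, also not called, was −0.14 in TIAR KO MEF but 0.11 with the processed signal and 0.03 without TIAR KO 2. The cause was not tested. Where an array was left out, the lone array was assumed to vary like the other group.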
